A study of Mus musculus with 6 samples.

Results

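The SNARE, synaptotagmin and vesicle release genes are the machinery by which a cell docks, primes and fuses vesicles. They were chosen by symbol alone: every syntaxin, syntaxin-binding protein, VAMP, SNAP, synaptotagmin, complexin, Doc2, Unc13, SV2, synapsin, synaptophysin and synaptogyrin symbol, with Nsf and Napa, Napb and Napg. That gave 78 of the 23337 gene symbols in the files. The symbol rule itself uses no measured value, though it was set with earlier results of these data known. The pattern also takes in Snap91, a clathrin assembly protein that is no SNARE.

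The data are RNA-seq read counts from outer hair cells sorted from mouse cochleae at E18.5, as 3 Insm1-KO and 3 Insm1-Het libraries. Insm1 encodes a zinc finger transcription repressor that nascent outer hair cells express and that keeps them from taking on inner hair cell gene expression. Cells of both genotypes carried the Insm1-GFP-Cre allele by whose fluorescence they were sorted, so the Insm1-Het controls are not wild type. The labels give neither the part of Insm1 that the KO lacks, nor whether a library is 1 animal or a pool. The p-values therefore reflect the spread among these libraries alone, and that spread may be technical.

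A SNARE complex forms when a VAMP on the vesicle zips together with a syntaxin and a SNAP-25 family protein on the target membrane. Munc18 and Munc13 proteins (Stxbp and Unc13 genes) help assemble it, complexins clamp and assist it, synaptotagmins time it to calcium, and NSF with the SNAP adaptors takes it apart again. Mature hair cells release glutamate at ribbon synapses, where otoferlin rather than the fast neuronal synaptotagmins is the main calcium sensor, and how far they need the neuronal SNAREs has been debated.

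Each library held 9259736, 7705177 and 9748629 counts in Insm1-KO, against 11738214, 10721902 and 12427039 in Insm1-Het. The members took 0.331, 0.41 and 0.457% of the counts in Insm1-KO and 0.372, 0.381 and 0.399% in Insm1-Het. Insm1 itself stood at 78.5, 60.1 and 18.7 CPM (counts scaled to library size) in Insm1-KO, against 109, 116 and 69 CPM in Insm1-Het, and the groups overlap. Its log2 fold change was -0.90 (95% interval -1.97 to 0.17; edgeR quasi-likelihood adjusted p 0.938), so its counts separate the labels only weakly. Insm1-KO replicate 3 stood apart: its mean Spearman correlation with the other libraries was 0.818, against 0.859 to 0.881 for the others. All 11 general hair cell markers were counted, led by Myo6 at 4836 to 5163 CPM in Insm1-KO and 4855 to 5191 CPM in Insm1-Het. The 9 outer hair cell markers summed to 716 to 776 CPM in Insm1-KO and 733 to 894 CPM in Insm1-Het. The 12 supporting cell markers, led by Tectb, summed to 2678 to 3952 CPM in Insm1-KO and 2354 to 2917 CPM in Insm1-Het, so transcripts of that list were present as well. In such bulk samples fewer cells of a type and less RNA per cell cannot be told apart.

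Neurons of the spiral ganglion use the same release machinery, so their markers stand beside every level that follows. Of 15 such markers, Nefm, Nefl and Isl1 held most of the sum of 871 to 1448 CPM in Insm1-KO and 902 to 1038 CPM in Insm1-Het. The other 12 were lower and uneven. Tubb3 reached 3.38 CPM in Insm1-KO and 1.96 CPM in Insm1-Het, and Stmn2 2.56 CPM in Insm1-KO and 4.8 CPM in Insm1-Het. Prph was listed at 0 except for 5.7 CPM in Insm1-Het replicate 2. Scn9a stood at 0.745, 0 and 0 CPM in Insm1-KO and 0, 18.6 and 16.6 CPM in Insm1-Het. Gap43 stood at 0, 5.08 and 0.111 CPM in Insm1-KO and 1.95, 14 and 9.77 CPM in Insm1-Het. Nefh and Ntrk3 were highest in Insm1-KO replicate 3, at 16.1 and 10.1 CPM. Elavl4, a neuronal RNA-binding protein, was lower in Insm1-KO at unadjusted p by edgeR (p 0.0392), with 2.24, 1.3 and 1.55 CPM in Insm1-KO and 16.2, 13.9 and 5.12 CPM in Insm1-Het. The part of neuronal transcripts in the levels of the members was not tested.

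Most of the machinery was present. Of the 78 members, 51 were counted in all 6 libraries and 13 averaged over 100 CPM. Cplx3, Cplx4, Syt8 and Vamp7 had 0 counts in every library. Vamp7 lies on an unplaced scaffold in the annotation used here, and whether the authors' counting could reach it was not tested. For a gene at 0 the 3-count limit over all 6 libraries is 0.0485 CPM, which covers counting error only. The filter on low counts passed 55 members to the genotype test, and 19 of the 23 that it left out had some counts.

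**Figure D1:**
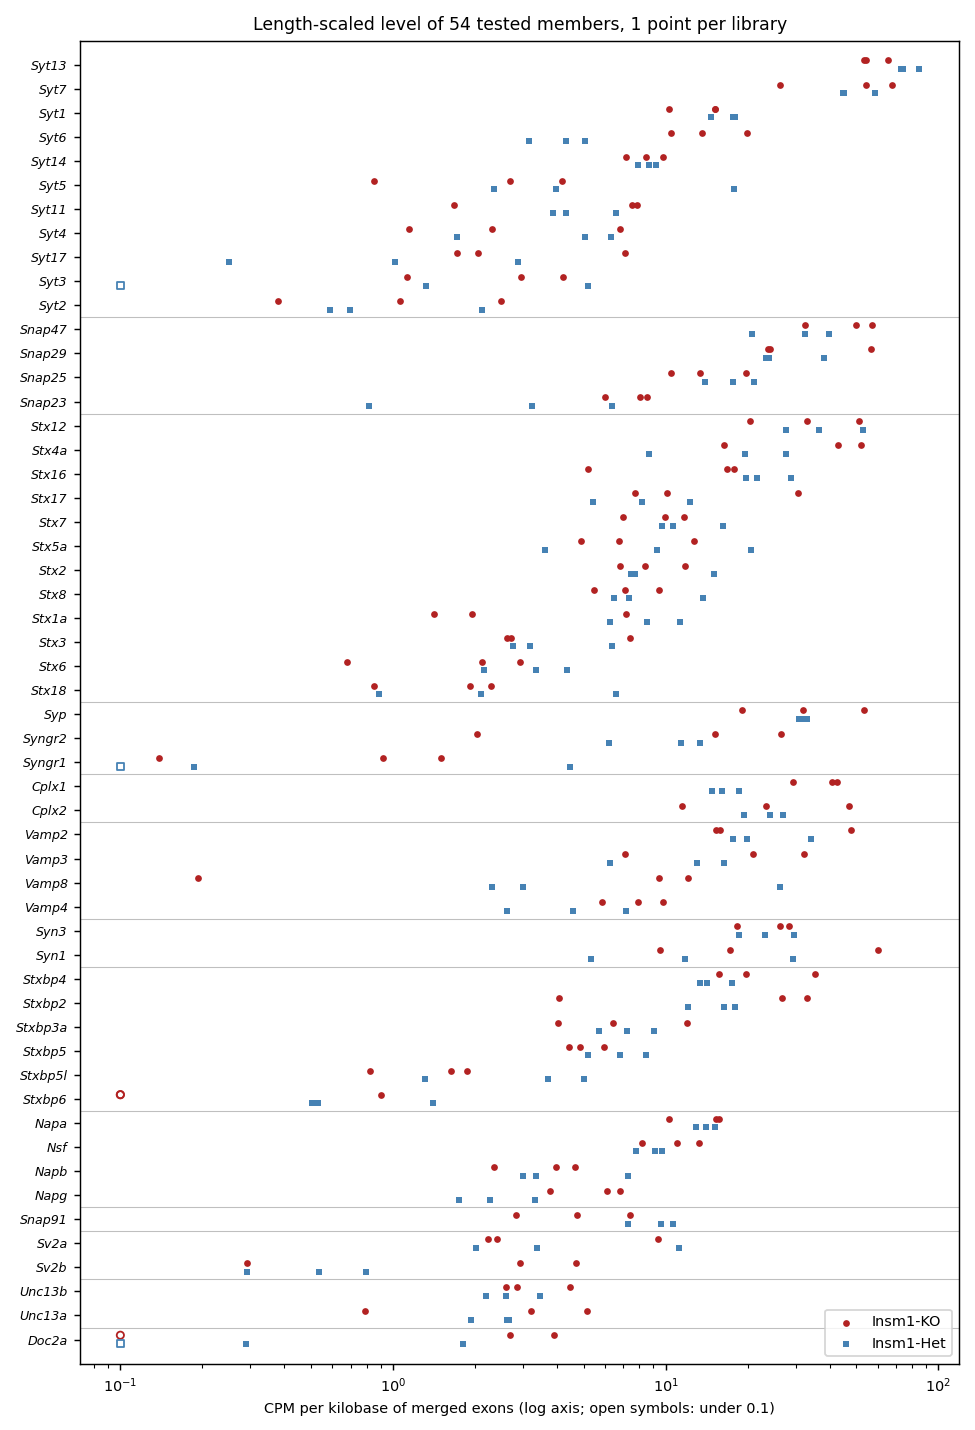
Length-scaled level of 54 of the 55 tested members in CPM per kilobase of merged exons, on a log axis, with 1 point per library (circles, Insm1-KO; squares, Insm1-Het) and grey lines between classes. Syt13 and Syt7 lead the synaptotagmins, and the genotypes overlap for most genes.

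No member passed the genotype test across all genes. With Benjamini-Hochberg adjustment, the quasi-likelihood test of edgeR called 0 of 55 members at adjusted p 0.05, against 0 of 11714 genes (0%). At unadjusted p under 0.05 it gave 3 of 55 members, or 5.45%, against 5.34% of all genes, so the share of members lay near the background. All 3 were higher in Insm1-KO, a direction that 3.19% of all genes took, and lower calls made up 2.15%. Libraries of the genotypes did not overlap for 5 members, or 9.09%, against 11.2% of all genes. Of these, 3 were higher in Insm1-KO (Syt6, Cplx1 and Napg, background 5.1%) and 2 lower (Syt13 and Stx16, background 6.1%). The fitted log2 fold change was above 0 for 30 members, or 54.55%, against 50.9% of all genes, with a median of 0.05 against 0.02 over all genes. DESeq2 called 1 member and limma-voom 0.

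The precision differed widely among members. For 7 members the 95% interval lay within a log2 change of 1 either way: Napa, Syn3, Syp, Syt13, Syt7, Syt1 and Syt14. For 30 of the 55 it lay within 2. For the 44 members at 20 CPM or more the median coefficient of variation over the 6 libraries was 42.7%, against 35.5% for all 7199 genes above that floor, whose levels were not matched to those of the members.

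**Figure D2:**
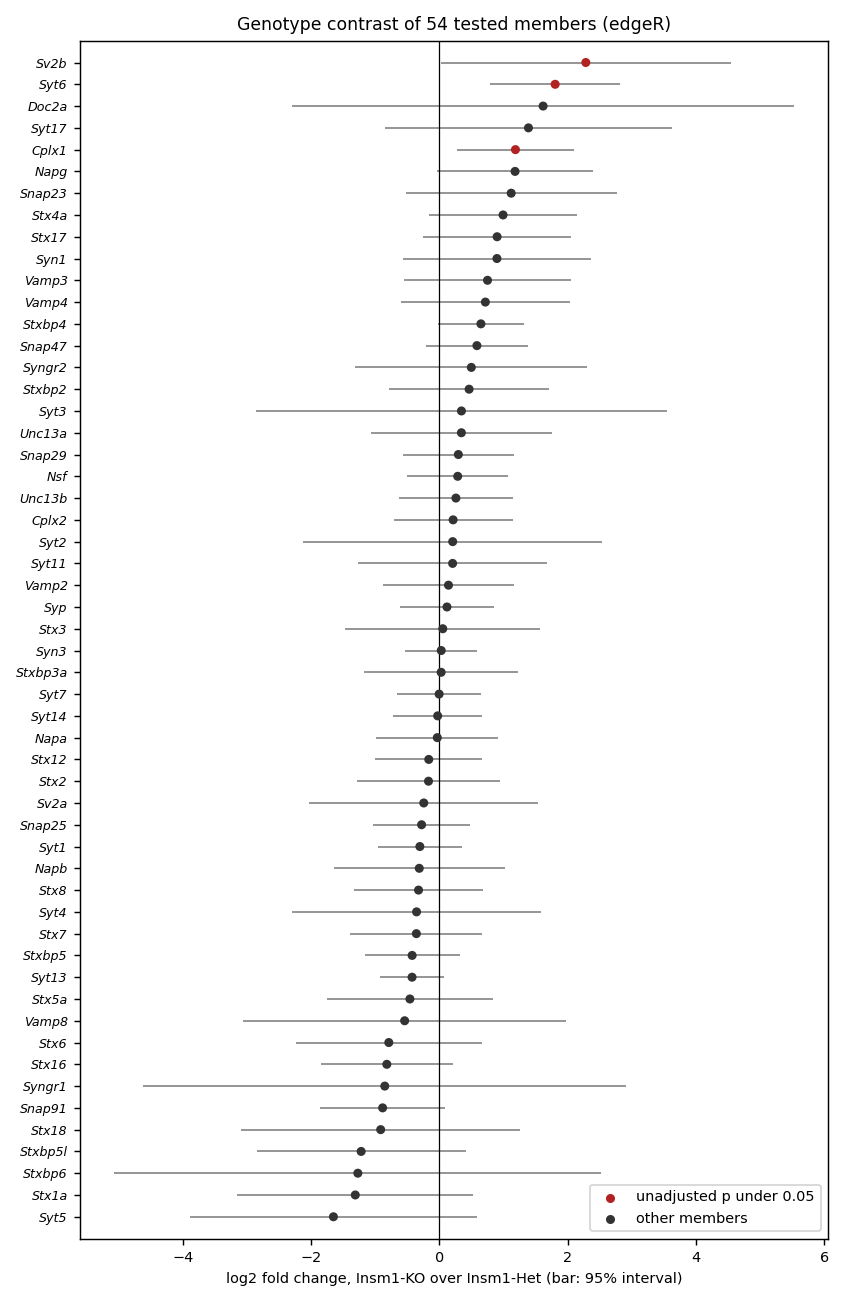
Log2 fold change of Insm1-KO over Insm1-Het for 54 of the 55 tested members (points) with 95% intervals from edgeR (bars). Of those drawn, only the intervals of Sv2b, Syt6 and Cplx1, in red, exclude 0.

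Syt6 had the lowest p of the members. It encodes a synaptotagmin found on internal membranes and known for its role in the acrosome reaction of sperm. It stood at 61, 79.1 and 116 CPM in Insm1-KO, against 29.5, 18.4 and 25.2 CPM in Insm1-Het. Every Insm1-KO library was above every Insm1-Het library. The log2 fold change was 1.81 (SE 0.47, 95% interval 0.79 to 2.82), with an unadjusted p of 0.0019 and an adjusted p of 0.896 by edgeR. With DESeq2 the adjusted p was 0.042. Leaving out any 1 library gave 1.53 to 1.996, the lowest without Insm1-KO replicate 3. By exact permutation of the 6 libraries (two-sided) p was 0.1, the smallest that 3 against 3 allows. The exons of Syt6 overlap those of the pseudogene Atg4a-ps on the other strand over 8.67% of their length and no source used here states how strand was treated. Syt6 lies on chromosome 3 (GRCm38, chr3:103575231-103645569, plus strand).

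Cplx1, the complexin of many fast central synapses, came second. It stood at 64.2, 92.8 and 89.5 CPM in Insm1-KO, against 40.5, 32.5 and 35.2 CPM in Insm1-Het, again without overlap. The log2 fold change was 1.19 (SE 0.42, 95% interval 0.28 to 2.10; edgeR unadjusted p 0.0145, adjusted p 0.92), and 1.10 to 1.33 with any 1 library left out. Both Syt6 and Cplx1 kept an unadjusted p under 0.05 in all 6 of these fits. Its gene lies on chromosome 5 (GRCm38, chr5:108518554-108550024, minus strand).

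Sv2b, a glycoprotein of synaptic vesicles that helps calcium-triggered release, was uneven. It stood at 2.45, 24.6 and 39.4 CPM in Insm1-KO, against 2.44, 4.48 and 6.69 CPM in Insm1-Het. Insm1-KO replicates 2 and 3 were high, whereas replicate 1 lay among the Insm1-Het libraries. The log2 fold change was 2.28 (SE 1.05, 95% interval 0.02 to 4.54; edgeR unadjusted p 0.0479), and 1.58 without Insm1-KO replicate 3, with unadjusted p 0.223 in that edgeR fit. Of the 6 fits that left out 1 library, 1 kept an unadjusted p under 0.05. Sv2b lies on chromosome 7 (GRCm38, chr7:75114894-75309262, minus strand).

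The promoters of these 3 genes are shown because Insm1 binds DNA directly and the 3 genes had the lowest p among the members. Sequences are RefSeq promoters on GRCm38.p6, the 250 bases before a start site, 5′ to 3′ on the gene's strand. Capitals mark CAGGGG, the core of the known Insm1 recognition sequence. The regions are chr3:103575032-103575281 (plus strand) for Syt6, chr5:108550028-108550277 (minus strand) for Cplx1 and chr7:75302610-75302859 (minus strand) for Sv2b.
Syt6: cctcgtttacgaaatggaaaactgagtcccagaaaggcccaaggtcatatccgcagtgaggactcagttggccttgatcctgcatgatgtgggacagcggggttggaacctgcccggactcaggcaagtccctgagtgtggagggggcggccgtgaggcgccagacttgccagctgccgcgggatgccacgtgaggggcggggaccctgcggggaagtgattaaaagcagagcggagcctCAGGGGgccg
Cplx1: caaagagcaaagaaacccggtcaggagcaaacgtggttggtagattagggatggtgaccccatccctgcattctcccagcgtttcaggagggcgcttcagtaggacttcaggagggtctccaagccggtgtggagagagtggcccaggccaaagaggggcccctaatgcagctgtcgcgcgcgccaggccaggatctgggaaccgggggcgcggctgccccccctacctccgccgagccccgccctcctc
Sv2b: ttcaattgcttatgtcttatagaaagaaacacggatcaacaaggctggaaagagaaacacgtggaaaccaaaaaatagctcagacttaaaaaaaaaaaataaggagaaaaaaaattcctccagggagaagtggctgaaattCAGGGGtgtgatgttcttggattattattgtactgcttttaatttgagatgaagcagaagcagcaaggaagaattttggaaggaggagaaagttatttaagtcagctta
On either strand, CAGGGG was in the window of 300 bases around the start for 2 of the 3 annotated starts of Syt6, 1 of the 4 of Sv2b and the single start of Cplx1 not at all. The matches of Syt6 are the same site, seen from neighbouring starts. For Syt6 and Sv2b the start shown is one that holds a match. RefSeq listed 74 promoters for 58 of the 78 members, and 18 of them, or 24.32%, held the letters, against 24.12% of 32851 promoters of all genes. The members' share was thus that of any promoter set, and a match is a description of letters, not of a binding site.

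**Figure D3:**
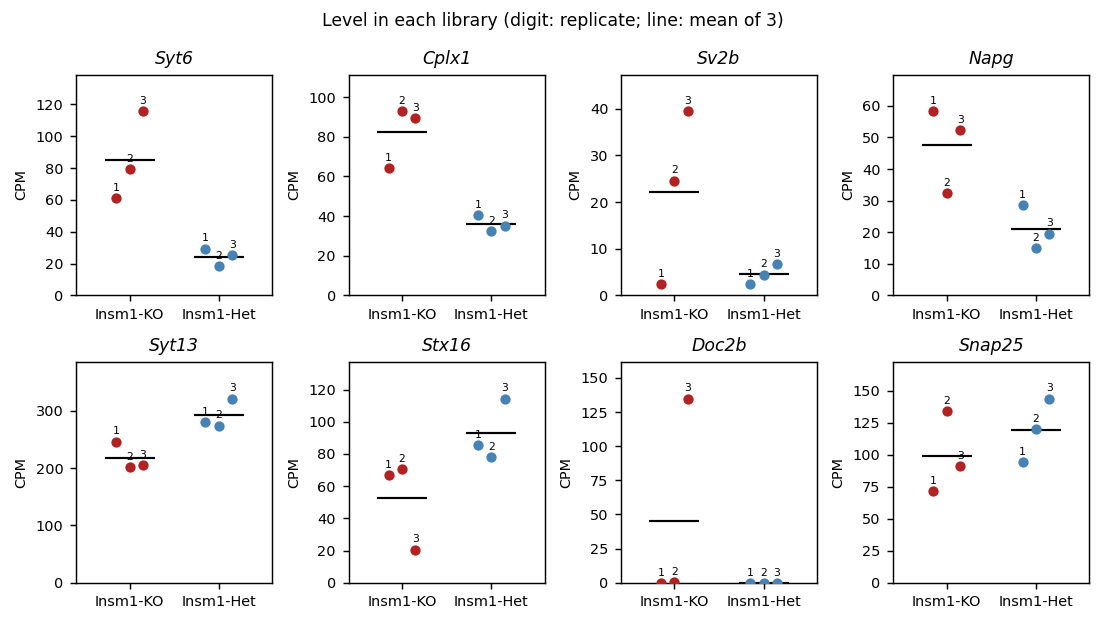
CPM in each library for 8 members, Insm1-KO left and Insm1-Het right; digits give the replicate and lines the mean of 3. The genotypes separate for Syt6, Cplx1, Napg, Syt13 and Stx16, Doc2b is high in Insm1-KO replicate 3 alone, and Snap25 overlaps.

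Markers of the inner hair cell moved with the genotype in part. Their 7 genes summed to 663, 985 and 1060 CPM in Insm1-KO, against 718, 529 and 517 CPM in Insm1-Het. Of the 4 tested, 3 (Brip1, Rprm and Tbx2) were higher in Insm1-KO at unadjusted p under 0.05 by edgeR, against 3.19% of all genes. The marker lists were chosen with earlier results of these data known, so these calls are no independent evidence. Brip1 had the lowest p of all 11714 genes in the edgeR test. Nhlh1, the highest of the list, stood at 246, 366 and 348 CPM in Insm1-KO and 485, 333 and 302 CPM in Insm1-Het. Its log2 fold change of -0.22 went the other way, and its groups overlap. Fgf8 stood at 9.26, 0 and 4.66 CPM in Insm1-KO and 0, 0 and 0 CPM in Insm1-Het. It did not pass the filter. Dnajc5b, also not tested, reached 2.45 CPM in Insm1-KO and 6.44 CPM in Insm1-Het. The defining marker Slc17a8 did not pass 1.92 CPM in Insm1-KO or 1.18 CPM in Insm1-Het. Supporting cell markers were at unadjusted p under 0.05 for 3 of 12 (S100a1, Lgr5 and Lfng), all higher in Insm1-KO, against the same 3.19% of all genes. Atoh1 of the general hair cell list, Ocm of the outer hair cell list and Erbb3 of the Schwann cell and glia list were higher in Insm1-KO at the same threshold. Ocm was low, at 1.6, 2.86 and 3.66 CPM in Insm1-KO and 0, 0 and 0 CPM in Insm1-Het. The 8 glia markers, led by Cnp, summed to 201 to 227 CPM in Insm1-KO and 136 to 270.2 CPM in Insm1-Het. None of the tested immune, endothelial and mesenchyme markers had an unadjusted p under 0.05 by edgeR, and no erythroid marker passed the filter. The part of any of these lists in the values of Syt6, Cplx1 and Sv2b was not tested.

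The 17 synaptotagmins summed to 794 to 1083 CPM in Insm1-KO and 964 to 1102 CPM in Insm1-Het. Per kilobase of exon, Syt13 averaged 67.7 CPM and Syt7 49.5 CPM over the 6 libraries. Together with Syt1 at 15.2, Syt6 at 9.4 and Syt14 at 8.55 CPM per kilobase they made up most of the class. Syt13 and Syt7 were not separated, since Syt13 was higher in 5 of 6 libraries, but each Syt7 value was above each Syt1 value, a separation lost with the longest transcript as the gene length.

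Syt13 lacks the residues that bind calcium and is known from endocrine cells. It stood at 246, 201 and 205 CPM in Insm1-KO, against 280, 274 and 321 CPM in Insm1-Het. All Insm1-KO libraries were lower, by a small step: the log2 fold change was -0.43 (SE 0.23, 95% interval -0.93 to 0.08; edgeR unadjusted p 0.0924). Syt7, a sensor of high calcium affinity tied to asynchronous release and vesicle supply, had 197, 507 and 407 CPM in Insm1-KO and 338, 335 and 439 CPM in Insm1-Het. Its groups overlap, and the log2 fold change was -0.003 (95% interval -0.66 to 0.65).

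Syt1, the fast sensor of forebrain synapses, had 126, 85.9 and 127 CPM in Insm1-KO and 147, 149 and 122 CPM in Insm1-Het. Its fast relative Syt2 was lower, at 2.89 to 19.1 CPM in Insm1-KO and 4.49 to 16.2 CPM in Insm1-Het, and Syt4, which hair cells are known to express, lay at 4.47 to 26.4 CPM in Insm1-KO and 6.66 to 24.6 CPM in Insm1-Het. Both overlap between genotypes, and the exons of Syt4 overlap those of Gm26658 over 14.5% of their length. Syt9, Syt10, Syt12, Syt15 and Syt16 did not pass the filter. Of the 11 synaptotagmins tested, 5 had a log2 fold change above 0 and 6 below.

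Otof, the hair cell's own calcium sensor and no member by symbol, had 449, 407 and 578 CPM in Insm1-KO and 492, 434 and 415 CPM in Insm1-Het. At 58.5 CPM per kilobase on average it stood between Syt13 and Syt7. Its log2 fold change was 0.10 (edgeR adjusted p 0.996).

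Among the Doc2 proteins, calcium sensors for spontaneous and asynchronous release, Doc2b was high in 1 library. Its counts were 0, 5 and 1214 in Insm1-KO and 0, 0 and 0 in Insm1-Het, so Insm1-KO replicate 3 alone, at 135 CPM, holds nearly all of them. It did not pass the filter. Without a filter edgeR called it at adjusted p 0.05, a call that rests on that library. Doc2a reached 10.9 CPM in Insm1-KO and 5.04 CPM in Insm1-Het, with 39.4% of its exon length shared with Ino80e on the other strand.

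The syntaxins that led were not the synaptic ones. Stx12, of recycling endosomes, averaged 36.9 CPM per kilobase, Stx4a, the broadly expressed plasma membrane syntaxin 4, 27.8, and Stx16, of the trans-Golgi network, 18.3. No neighbours among these 3 were separated. Stx1a, the syntaxin of neuronal synapses, averaged 6.1 CPM per kilobase and Stx3, the syntaxin of retinal ribbon synapses, 4.17.

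Stx1a stood at 19.1, 5.21 and 3.78 CPM in Insm1-KO, against 30, 16.7 and 22.8 CPM in Insm1-Het. Insm1-KO replicates 2 and 3 lay under all Insm1-Het libraries, and replicate 1 lay among them. The log2 fold change was -1.31 (SE 0.86, 95% interval -3.15 to 0.53; edgeR unadjusted p 0.149), and -2.37 without Insm1-KO replicate 1. Of the 8 neuronal markers tested, 3 had a log2 fold change above 0 and 5 below. Elavl4 was lower in Insm1-KO, whereas the abundant Nefm, Nefl and Isl1 had log2 fold changes of 0.32, 0.18 and -0.03. The part of neuronal transcripts in the Stx1a value was not tested. Stx3 had 14.9, 15.5 and 42.4 CPM in Insm1-KO and 15.7, 18.1 and 36.3 CPM in Insm1-Het, with overlap.

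Stx16 stood at 66.7, 70.7 and 20.5 CPM in Insm1-KO, against 85.6, 78.3 and 114 CPM in Insm1-Het, and all Insm1-KO libraries were lower. The log2 fold change was -0.82 (95% interval -1.84 to 0.21; edgeR unadjusted p 0.109), and -0.43 without Insm1-KO replicate 3. Stx4a had 38.6, 122.6 and 101 CPM in Insm1-KO, against 65.1, 20.5 and 46.1 CPM in Insm1-Het, with a log2 fold change of 0.99 (95% interval -0.16 to 2.14). Stx12 had 64.8 to 163 CPM in Insm1-KO and 88.1 to 169 CPM in Insm1-Het. Over the 12 syntaxins tested, 3 lay above 0 and 9 below, with a median log2 fold change of -0.34, and none had an unadjusted p under 0.05 by edgeR.

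In the SNAP-25 family, which supplies 2 of the 4 helices of a SNARE bundle, the members of intracellular membranes led. Snap47 averaged 38.7 and Snap29 31.7 CPM per kilobase, above Snap25, the plasma membrane form of neurons, at 16.1 and its widely expressed relative Snap23 at 5.51. Each Snap29 value was above each Snap25 value, but with the longest transcript as the gene length Snap29 was higher in 4 of 6 libraries and the genes overlapped. Snap25 was separate from Snap23 by both lengths. Snap25 had 71.3, 134 and 90.8 CPM in Insm1-KO and 94.4, 120.2 and 144 CPM in Insm1-Het, which overlap. Snap47, whose exons overlap Jmjd4 over 11.6%, had 85.7, 132 and 152 CPM in Insm1-KO and 105, 85.8 and 55.1 CPM in Insm1-Het. Snap29 had 81.8, 83.4 and 196 CPM in Insm1-KO and 80.5, 131 and 82.4 CPM in Insm1-Het.

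Among the vesicle SNAREs Vamp2, synaptobrevin 2 of synaptic vesicles, averaged 25.1 CPM per kilobase and Vamp3, cellubrevin of recycling endosomes, 16. Vamp1, the other synaptic form, averaged 0.0882, and Vamp4, of the trans-Golgi network, was above it in all 6 libraries without overlap. Vamp2 had 60.1, 183 and 58.1 CPM in Insm1-KO and 67.2, 75.5 and 130 CPM in Insm1-Het. Vamp3 had 93.1, 60.3 and 20.4 CPM in Insm1-KO and 37.8, 47.4 and 18.1 CPM in Insm1-Het. Both overlap. Vamp1 had 2.66, 0 and 0 CPM in Insm1-KO and 0.731, 1.12 and 0.866 CPM in Insm1-Het.

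Among the syntaxin-binding proteins Stxbp4, known from insulin-regulated vesicle traffic, averaged 19.3 CPM per kilobase, and Stxbp2, the Munc18 of epithelia and blood cells, 18.4. Stxbp4 had 234, 185 and 417 CPM in Insm1-KO and 207, 159 and 168 CPM in Insm1-Het, with a log2 fold change of 0.65 (95% interval -0.02 to 1.32; edgeR unadjusted p 0.0565) and 0.24 without Insm1-KO replicate 3. Of this class 4 members lay above 0 and 3 below.

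Of the 4 complexins 2 were counted. Cplx1 averaged 27 and Cplx2 25.4 CPM per kilobase, and which led depended on the library: Cplx1 was higher in 2 of 6. Cplx1 took 60.98% of their summed length-scaled level on average in Insm1-KO and 41.37% in Insm1-Het. Cplx2 had 56.4, 115 and 232 CPM in Insm1-KO and 132, 95.8 and 119 CPM in Insm1-Het, with a log2 fold change of 0.21 (95% interval -0.71 to 1.14). Cplx3 and Cplx4, the complexins of retinal ribbon synapses, had 0 counts throughout.

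Munc13 proteins prime docked vesicles. Unc13b averaged 3.03 and Unc13a 2.73 CPM per kilobase, neither separate from the other, and Unc13a lay above Unc13d in every library without overlap. Unc13c had counts in 1 library, at 0.244 CPM. Unc13a had 40.5, 65.2 and 9.99 CPM in Insm1-KO and 24.4, 33.5 and 33.1 CPM in Insm1-Het. Unc13b had 59, 64.7 and 101 CPM in Insm1-KO and 50, 78.7 and 59.3 CPM in Insm1-Het. Both overlap between the genotypes.

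All 4 disassembly genes were tested. Napa, alpha-SNAP, averaged 13.9 CPM per kilobase and Nsf, the ATPase it recruits, 9.85, ahead of Napb and Napg. Nsf had 68.5, 91.6 and 111 CPM in Insm1-KO and 65, 76.4 and 80.7 CPM in Insm1-Het. Napa had 38.9 to 59.6 CPM in Insm1-KO and 49.1 to 57.5 CPM in Insm1-Het. Napg, gamma-SNAP, stood at 58.2, 32.4 and 52.2 CPM in Insm1-KO against 28.5, 14.9 and 19.5 CPM in Insm1-Het, without overlap. Its log2 fold change was 1.18 (SE 0.56, 95% interval -0.03 to 2.39; edgeR unadjusted p 0.0557).

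Proteins of the vesicle membrane and its surface closed the set. Syp, synaptophysin, averaged 33.4 CPM per kilobase and held 71% of the summed level of its family. It had 99.6, 166 and 277 CPM in Insm1-KO, a wide spread, and 161, 167 and 172 CPM in Insm1-Het, a narrow one, with a log2 fold change of 0.12 (95% interval -0.62 to 0.86). Its exons overlap Gm14703 over 16.8%. Synapsins tether vesicles to each other and to actin. Syn3 averaged 24 and Syn1 22.2 CPM per kilobase, and Syn2 0.0352. Syn3 had 225, 322 and 347 CPM in Insm1-KO and 229, 283 and 363 CPM in Insm1-Het. Timp3 lies within Syn3 on the other strand and shares 14.1% of its exon length. Of the windows of 100 bases in the longest Syn3 transcript, 34.9% also occur in Timp3. Timp3 stood at 4.26, 22.1 and 21.1 CPM in Insm1-KO and 5.68, 4.02 and 57.5 CPM in Insm1-Het.

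Syn1 had 56.6, 31.4 and 198 CPM in Insm1-KO and 17.6, 97.1 and 38.7 CPM in Insm1-Het. Its log2 fold change was 0.90, and -0.21 without Insm1-KO replicate 3. Sv2a, the most widely expressed SV2 protein, had 43.3, 11.2 and 10.3 CPM in Insm1-KO and 51.8, 9.34 and 15.6 CPM in Insm1-Het. Snap91 had 67.4, 43.1 and 25.8 CPM in Insm1-KO, against 87.7, 66.6 and 97 CPM in Insm1-Het, with a log2 fold change of -0.88 (95% interval -1.86 to 0.09; edgeR unadjusted p 0.0729).

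**Figure D4:**
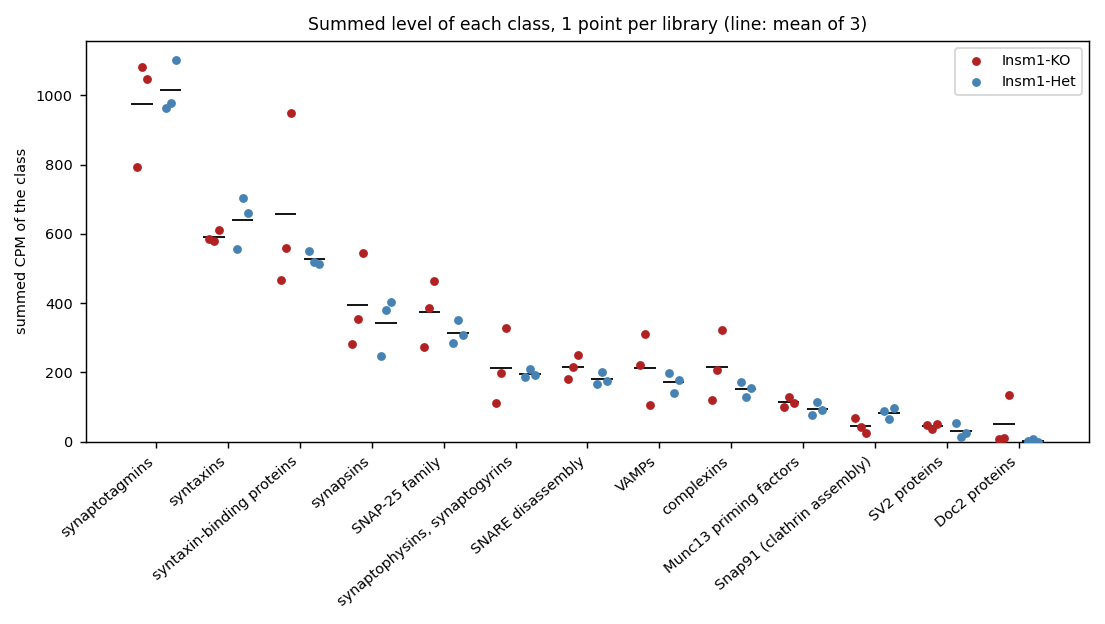
Summed CPM of each class of members in each library, Insm1-KO (red) left of Insm1-Het (blue), with lines at the mean of 3. The genotypes overlap in every class shown except the Doc2 proteins, whose Insm1-KO values include the library with nearly all Doc2b counts.

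The order of levels within classes was firm in few places. Of 61 pairs of neighbours in the order, 8 did not overlap over the 6 libraries, and 6 with the longest transcript as the gene length. By that length Syn3 averaged 61.8 CPM per kilobase, and Nsf stood ahead of Napa. Among the syntaxins Stx4a then stood ahead of Stx12 and Stx3 ahead of Stx1a, each in 3 of 6 libraries and without separation.

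Other genes of release were listed by function: active zone and calcium channel genes, ferlins, Rab and tethering genes, SNARE regulators, granule priming factors, glutamate transporters and SNAREs outside the symbol rule. Of the 72 in the files 57 were tested, and edgeR called 0 at adjusted p 0.05. At unadjusted p under 0.05 there were 2, or 3.51%, against 5.34% of all genes, so the share was not above the background. The 2 are Ca2+-dependent activator proteins for secretion, which prime dense-core vesicles. Cadps stood at 28.5, 26.4 and 16.7 CPM in Insm1-KO, against 3, 7.66 and 8.03 CPM in Insm1-Het, with all Insm1-KO libraries higher (log2 fold change 1.93; edgeR unadjusted p 0.0359, adjusted p 0.92). Cadps2 stood at 153, 226 and 118 CPM in Insm1-KO, against 228, 309 and 312 CPM in Insm1-Het, with all Insm1-KO libraries lower (log2 fold change -0.78; edgeR unadjusted p 0.019, adjusted p 0.92). Genotypes did not overlap for 6 of the 57, or 10.53%, against 11.2% of all genes. The median log2 fold change was 0.07, against 0.02 over all genes.

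The highest genes of the other lists per kilobase overlapped between genotypes. Rims2, an active zone scaffold, had 590.2, 661 and 736 CPM in Insm1-KO and 586, 665 and 550.1 CPM in Insm1-Het. Rab3ip, a Rab exchange factor, had 273, 256 and 351 CPM in Insm1-KO and 351, 307 and 368 CPM in Insm1-Het. Snapin, a SNAP-25-binding protein, had 84.5 to 183 CPM in Insm1-KO and 94.6 to 134 CPM in Insm1-Het. Gosr2, a Golgi SNARE, had 91.6 to 157 CPM in Insm1-KO and 76.3 to 101 CPM in Insm1-Het. Slc17a6, a vesicular glutamate transporter of neurons, had 0, 0.13 and 0 CPM in Insm1-KO and 0.162, 0 and 6.46 CPM in Insm1-Het, and it did not pass the filter. The other transporters, Slc17a7 and Slc17a8, did not pass 1.92 CPM in Insm1-KO or 2.76 CPM in Insm1-Het.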

How the data were processed

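RNA of 3 Insm1-KO and 3 Insm1-Het samples, sorted outer hair cells at E18.5, was depleted of ribosomal RNA, amplified from random primers and sequenced as read pairs, per the labels' protocols. The deposited files of the authors hold raw read counts for each gene symbol as whole numbers. The submitters' processing notes name Trimmomatic, STAR and HTSeq, with GRCm38 (mm10) as the build, and their versions, the annotation and the strand setting are not stated in any source used here. No gene-level total, blank or summary line was present (0 of each), and mitochondrially encoded genes numbered 0. Total counts ran from 7705177 to 12427039, and genes outside the tested set held 0.274% of them.

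Counts were scaled by TMM in edgeR 4.0.16 (R 4.3.3), filtered with filterByExpr at its defaults (count minimum 10, total minimum 15), and tested by the quasi-likelihood F test of genotype, with Benjamini-Hochberg adjustment over the 11714 genes tested. DESeq2 1.42.0 and limma 3.58.1 (voom) were alternatives. CPM values are TMM-scaled. Members and other release genes were ranked by level as CPM per kilobase of merged exons in GENCODE M21, and the leading marker of a list by CPM. Lengths were taken for 77 members matched by symbol and 1 (Stxbp3a) by an older symbol. Vamp7 is on an unplaced scaffold there. Exons of 21 members overlap another gene, 8 of them over 10% of their length. Among 7 members more than 5% of windows of 100 bases are shared with other genes. For these reads cannot be fully told apart. The test was tried on simulated counts.

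Members and gene lists were chosen with earlier results of these data known. Named in the text were the highest 1 or 2 members of each class by length-scaled level, those at unadjusted p under 0.05, those whose genotypes do not overlap with a mean of at least 5 CPM in either, and a list of well-known release genes; of other lists, Otof, those at unadjusted p under 0.05 and the highest gene per kilobase. Alternatives were other scalings, no filter or a stricter one, the replicate number as a block, another gene length, and each library left out. Values of 2 members are not reported here, though counts over all members include them.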

Additional observations from a re-analysis of the deposited data

How the results depend on the processing

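Over 31 named members and 14 settings, 393 of 434 values kept their direction and their side of adjusted p 0.05, 40 changed direction (28 of these with a library left out) and 1, Syt6 in DESeq2, passed the threshold. The count of all genes at adjusted p 0.05 was 0 in edgeR's default form, 26 in DESeq2, 67 without a filter and 1 with a newer form of the fit, added after seeing the data. Of members, DESeq2 called 1 (Syt6) and the fit without a filter 1 (Doc2b, nearly all from Insm1-KO replicate 3). At unadjusted p under 0.05 there were 3 of 55 members, against 5.34% of all genes. These became 5 of 55 in DESeq2 (7.40% of all genes), 9 of 74 without a filter (7.27%) and 5 of 55 in the newer form (8.30%). With a library left out the fewest were 2 of 57, without Insm1-Het replicate 3 (3.905% of all genes). The most were 10 of 56, without Insm1-KO replicate 1 (8.26% of all genes). The median log2 fold change of the members ran from -0.056 to 0.21, and that of all genes from -0.031 to 0.045. Members whose genotypes do not overlap then ran from 7 to 19. Fewer libraries overlap less by construction, and 19.17 to 24.45% of all genes did not overlap in these fits, against 12.5 to 33.93% of members, both highest without Insm1-KO replicate 1. In limma-voom the median log2 fold change of the members was -0.060, near the -0.051 of all genes. The cause of the differences between settings was not tested.

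Same-numbered libraries did not visibly deviate together: correlations were 0.010, 0.007 and 0.014, against -0.027 to 0.023 for libraries of different number. The labels name no pairing, and whether same-numbered libraries share a litter or a sort was not tested. With the replicate number as a block, the count of all genes at adjusted p 0.05 was 1 and of members 0. At unadjusted p under 0.05 there were 2 of 55 members, against 4.22% of all genes. In that block fit, which moved the median of all genes to -0.047, the log2 fold change was -0.025 for Stx3, -0.0034 for Syp and -0.023 for Vamp2.

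Values near 0 changed direction elsewhere. Syt7 was 0.0092 in DESeq2 and with median-ratio size factors. In limma-voom, which moved the median of all genes to -0.051, Cplx2 was -0.022, Stx3 -0.027, Syp -0.011, Unc13a -0.051 and Vamp2 -0.076. With library size only, which moved the median of all genes to -0.05, Stx3 was -0.039 and Syn3 -0.041. With a library left out, log2 fold changes ran from -0.43 to 0.58 for Cplx2, -0.12 to 0.14 for Napa, -0.24 to 0.56 for Snap29, -0.55 to 0.13 for Stx12, -0.61 to 0.54 for Stx3, -1.25 to 0.79 for Sv2a, -0.21 to 1.76 for Syn1, -0.12 to 0.23 for Syn3, -0.32 to 0.41 for Syp, -0.66 to 1.02 for Syt2, -1.32 to 0.058 for Syt4, -0.28 to 0.30 for Syt7, -0.26 to 0.81 for Unc13a, -0.011 to 0.45 for Unc13b and -0.61 to 0.50 for Vamp2. Groups of 3 libraries limit what can be seen, and the interval of 22 tested members both spanned 0 and reached past a log2 change of 2.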

Other observations

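Several members of low level had their highest value in Insm1-Het replicate 2, and were picked for mention after their values were seen. How many of all members or of all genes peak in that library was not counted, so these examples show no pattern of the set. Syt5, a synaptotagmin of dense-core vesicles, stood at 2.02, 6.38 and 9.88 CPM in Insm1-KO and 5.6, 42.4 and 9.45 CPM in Insm1-Het. Syngr1, a synaptogyrin of synaptic vesicles, stood at 7.24, 4.43 and 0.666 CPM in Insm1-KO and 0.893, 21.4 and 0 CPM in Insm1-Het. Its relative Syngr3 was at 0 in all 3 Insm1-KO libraries and at 0, 8.69 and 0.0788 CPM in Insm1-Het. Stxbp5l, tomosyn 2, stood at 7.03, 15.9 and 13.9 CPM in Insm1-KO and 11.2, 42.9 and 31.5 CPM in Insm1-Het. In the same library the neuronal markers Scn9a, Gap43, Ntrk2, Prph and Snhg11 had their highest values, 18.6, 14, 9.81, 5.7 and 4.76 CPM. The rest of that list of 15 markers peaked in other libraries. The abundant Nefm and Nefl stood at 493 and 312 CPM there, against 978 and 392 CPM in Insm1-KO replicate 2. The part of neuronal transcripts in these 4 members was not tested.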
